A study of Mus musculus with 4 samples.

Results

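Mature Ccr7+ Fscn1+ dendritic cells were picked out of single-cell RNA profiles of tumour-draining lymph nodes by the transcripts they carry. A barcode was kept when it had at least 300 genes and at most 10% mitochondrial counts. A kept barcode was taken as a mature dendritic cell when it had no count of the T cell gene Cd3e or the B cell gene Cd79a and a count of at least 3 of 6 genes, namely Fscn1, Ccl22, Apol7c, Cacnb3, Nudt17 and Zmynd15. This gave 401 mature cells among 26096 kept barcodes, of 30824 deposited. The cells came from inguinal nodes of C57BL/6J mice that all carried B16F10 melanoma, a mouse tumour line, implanted on both sides in the upper anterior thigh. In the treated group, 2 mice drank water with 2 mg/ml indoximod and had intraperitoneal ibrutinib at 350 ug each day from day 9, and intraperitoneal cyclophosphamide at 150 mg/kg on day 10. The control group was 2 tumour-bearing mice given no treatment, and nodes of all 4 mice were taken 2 days after the day of cyclophosphamide. Indoximod acts on the tryptophan-catabolism pathway of the IDO enzymes, ibrutinib inhibits the kinase BTK, and cyclophosphamide is an alkylating agent.

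Each barcode carries a library number from 1 to 4, and no label ties that number to a mouse or a group, so treated and control mice are not compared, and that contrast is not analysed here. That a library is the cell suspension of 1 mouse is not stated either. Values are therefore given library by library or from counts pooled over all 4 libraries. There is no mean over libraries, no test between them and no p-value. In a pool each library weighs by its counts, and these weights differ between classes of cells.

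Dendritic cells take up antigen in tissues, and on maturation they lower uptake, raise co-stimulatory molecules and switch to the chemokine receptor CCR7, which guides them along its ligands CCL19 and CCL21 into the T cell zone of a lymph node. There they present peptides and secrete chemokines that draw T cells. In tumour work such cells are known for carrying activating and restraining molecules side by side, among them CD40 and PD-L1.

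The mature cells numbered 63, 71, 111 and 156 in libraries 1 to 4. These were 1.11%, 1.23%, 1.75% and 1.87% of the kept barcodes of their library, with exact (Clopper-Pearson) 95% intervals of 0.855 to 1.42, 0.964 to 1.55, 1.44 to 2.11 and 1.59 to 2.19. The interval of library 1 lies below those of libraries 3 and 4, and that of library 2 below that of library 4. Intervals here and below cover counting error only. Over all libraries the share was 1.54% (1.39 to 1.69). The depth of mature cells was close in all libraries, with median totals of 8572, 8648, 8642 and 8401 UMIs (unique molecular identifiers, 1 per captured transcript).

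**Figure D1:**
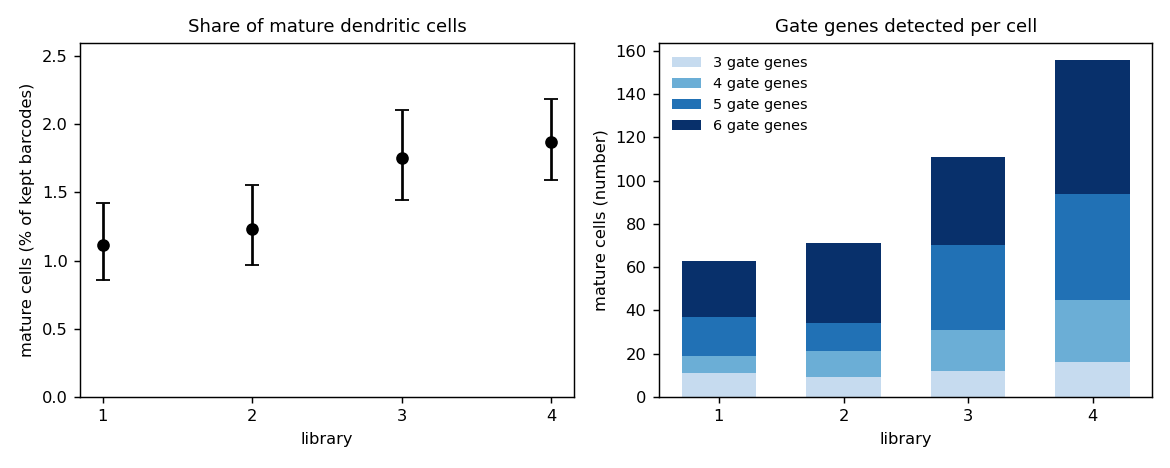
Left, percent of kept barcodes that met the mature-cell rule in each library, with exact 95% intervals; right, the number of mature cells in each library split by how many of the 6 genes of the rule had a count. The share was lowest in library 1 at 1.11% and highest in library 4 at 1.87%.

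Most mature cells lay well inside the rule. Of the 401, 166 carried all 6 genes, 119 carried 5, 68 carried 4 and 48 carried 3. Cells with 3 of the 6 had a median of 2849.5 UMIs, and the 36 cells just outside, with 2 of the 6, had a median of 2019 UMIs. CCR7 transcript was not used to choose the cells. Ccr7 was detected in 99.4% of cells with 6 genes of the rule, 66.7% of those with 3 and 47.2% of the cells just outside with 2. It was also detected in 22.5% of cells with 1 gene and in 40.9% of the 1971 cells with 0. Detection of Ccr7 alone thus does not set apart the cells at the edge of the rule.

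The genes of the rule are given with their levels as a description only, since they chose the cells, in counts per 1000000 UMIs (CPM) of each library's mature cells. Fscn1, which encodes the actin-bundling protein fascin found in dendrites, lies at chr5:142960343-142973185 on the plus strand of mm10 and stood at 2775, 3458, 2913 and 2328 CPM in libraries 1 to 4. Ccl22, at chr8:94745590-94751699 (plus), encodes a ligand of CCR4 and stood at 1176, 1971, 2073 and 1101 CPM. Apol7c, an apolipoprotein L gene at chr15:77524852-77533316 (minus), stood at 2783, 4368, 2138 and 2110 CPM. The order of the libraries thus differed between genes, with library 2 highest for Fscn1 and Apol7c and library 3 highest for Ccl22. Cacnb3, a calcium-channel beta subunit gene at chr15:98630840-98644529 (plus), kept to a range of 538 to 624 CPM. Nudt17 (chr3:96706067-96708562, minus) kept to 275 to 398 CPM and Zmynd15 (chr11:70459433-70466202, plus) to 598 to 889 CPM.

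Ccr7, at chr11:99144196-99155077 (minus), is in the label of these cells but not in the rule. It stood at 916, 994, 1116 and 1145 CPM in libraries 1 to 4 and was detected in 366 of 401 mature cells (91.3%, 88.1 to 93.8). Among cells chosen by 3 or more type 1 conventional dendritic cell (cDC1) genes, Ccr7 was detected in 0 of 23, which, taking 3 cells as the limit of a count of 0, allows a share of up to 13.0% of cells with a count. Among monocyte and cDC2-gated cells it was detected in 2 of 62. Resting lymphocytes also use CCR7, and Ccr7 was detected in 68.5% of T-gated and 27.4% of B-gated cells. Its level was 215 CPM in T-gated cells and 85.8 CPM in B-gated cells, against 1074 CPM over all mature cells. After each cell was thinned to 3000 UMIs, 88.5% of the mature cells left still carried Ccr7. The label was chosen with earlier results of these data known, so the presence of Ccr7 in most of the cells describes them and does not test the label.

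Markers of other lineages were summed in mature cells, and their part in the results was not tested. Summed CPM ran from 37.6 to 102 for T cell markers (Cd3e is 0 by the rule), from 41.8 to 110 for B cell markers (Cd79a is 0 by the rule), from 84.7 to 157 for plasmacytoid markers (Klk1 at 0) and from 47.3 to 110 for macrophage markers. Neutrophil markers reached 3.38 CPM at most, with S100a8, Retnlg and Csf3r at 0, and melanoma markers 5.06 CPM at most, with Mlana and Tyrp1 at 0. Haemoglobin genes of red cells were uneven, at 204, 183, 9.94 and 26.9 CPM in libraries 1 to 4. NK cell markers stood at 1.69, 53.3, 0 and 0.690 CPM in the same order, and stroma markers reached 8.97 CPM at most. Scrublet called 3 of the 401 cells doublets. The rule set aside 142 barcodes with at least 3 of the 6 genes and a count of Cd3e or Cd79a, and these had a median of 14535.5 UMIs. Of the barcode sequences, 86 occurred in more than 1 library, and 0 of them belonged to mature cells in 2 libraries.

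Mature cells were set beside 2 smaller classes of myeloid cells from the same libraries. The cDC1-gated class held 23 cells (6, 5, 9 and 3 in libraries 1 to 4) with at least 3 of Xcr1, Clec9a, Cadm1, Naaa, Tlr3 and Itgae. The monocyte and cDC2-gated class held 62 cells (16, 16, 11 and 19) with at least 3 of Sirpa, Itgam, Csf1r, Cd209a, Clec10a and Ccr2. This class also had under 3 of the cDC1 genes and no count of Siglech, C1qa, C1qb or Ncr1. Cells of both classes had no Cd3e or Cd79a count and under 3 of the 6 genes that chose the mature cells. Mature cells of either lineage were thus kept out of both classes, and differences in genes that go with those 6 are partly built in. UMIs were summed per class and library, and a gene was called higher or lower in mature cells when its CPM differed at least 1.5-fold the same way in every library with at least 20 counts over both classes, given at least 3 such libraries. This call is a rule of size held across libraries and no significance test, and because the classes were chosen by their genes it describes them. Against cDC1-gated cells, 907 of 4189 genes tested were higher (21.7%) and 279 lower (6.66%). Against monocyte and cDC2-gated cells, 628 of 4579 were higher (13.7%) and 633 lower (13.8%). These shares are the background of every list count in these 2 comparisons. Among markers of other lineages, the macrophage marker Vcam1 was called higher in mature cells than in both classes. The plasmacytoid marker Tcf4 was called higher than in cDC1-gated cells, but turned to lower with a cDC1 gate of 2 genes (log2 ratio -1.38).

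The cDC1-gated class limits what its calls can carry, since it held 220677 UMIs in all and 9957 in library 4, against 3686046 in mature cells. Asking also that the exact 95% interval of the pooled ratio leave out 1 left 805 higher and 273 lower against cDC1-gated cells, and 612 higher and 631 lower against monocyte and cDC2-gated cells. Of the 907 genes higher than in cDC1-gated cells, 172 had 0 counts there. Scaling matters too. TMM normalisation moved the median log2 ratio over all genes tested to 0.62 against cDC1-gated cells, where it was 0.05 by CPM, and to 0.29 against monocyte and cDC2-gated cells, where it was -0.14. The share of calls that were higher became 94.5% and 70.2% under TMM, where by CPM it was 76.5% and 49.8%.

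Several chemokine genes stood far higher in mature cells. Of 4 chemokine genes tested against cDC1-gated cells all 4 were higher, and of 7 tested against monocyte and cDC2-gated cells 4 were higher (Ccl17, Ccl22, Ccl5 and Cxcl16, of which Ccl22 chose the cells) and 3 lower (Ccl6, Ccl9 and Cxcl10). Ccl5, which encodes a chemokine that draws T cells and other leukocytes, stood at 17089, 17295, 15721 and 13890 CPM in mature cells of libraries 1 to 4, against 49.8, 55.9, 863 and 130 CPM in monocyte and cDC2-gated cells. The lowest mature library thus lay far above the highest of the other class, and the pooled ratio was 63.3-fold (53.6 to 75.2). In cDC1-gated cells Ccl5 had 2 counts, which gives 1709-fold (473 to 14116). Cxcl16, whose product binds CXCR6 on effector T cells, stood at 975 CPM in mature cells, against 140 CPM in cDC1-gated cells (6.94-fold higher) and 88.5 CPM in monocyte and cDC2-gated cells (11-fold higher). Ccl17, a CCR4 ligand gene like Ccl22, had 233 CPM in mature cells and 0 counts in both other classes, at least 17.1-fold higher than in cDC1-gated cells and at least 44.7-fold higher than in monocyte and cDC2-gated cells with those classes set at 3 counts in all. Cxcl10, a CXCR3 ligand gene and interferon target, went the other way. It stood at 0, 1.57, 1.99 and 6.90 CPM in mature cells, against 0, 2037, 1041 and 313 CPM in monocyte and cDC2-gated cells, and was 216-fold lower in the pool.

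A list of 41 genes of the maturation programme, drawn up with earlier results of these data known, was almost wholly on the mature side. Of the 38 tested, 35 were higher and 1 (Cst3) lower than in cDC1-gated cells, and 36 were higher and 0 lower than in monocyte and cDC2-gated cells. Nudt17, counted among the higher genes both times, chose the cells. The median log2 ratios were 4.17 and 3.97, against 0.05 and -0.14 over all genes tested. With genes of 0 counts set at 3 counts they were 4.11 and 4.00, against 0.17 and -0.11 over all genes. Socs2, an inhibitor of cytokine signalling, is an example, with 753, 655, 806 and 705 CPM in mature cells, 0 counts in cDC1-gated cells (at least 53.8-fold higher) and 1 count in monocyte and cDC2-gated cells. Il4i1 encodes a secreted amino-acid oxidase that restrains T cells. It stood at 754, 869, 620 and 712 CPM in mature cells, against 306, 24.0, 8.46 and 31.3 CPM in monocyte and cDC2-gated cells, 7.83-fold higher (5.97 to 10.5). The monocyte and cDC2-gated cells of library 1 came nearest, and no library overlapped.

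**Figure D2:**
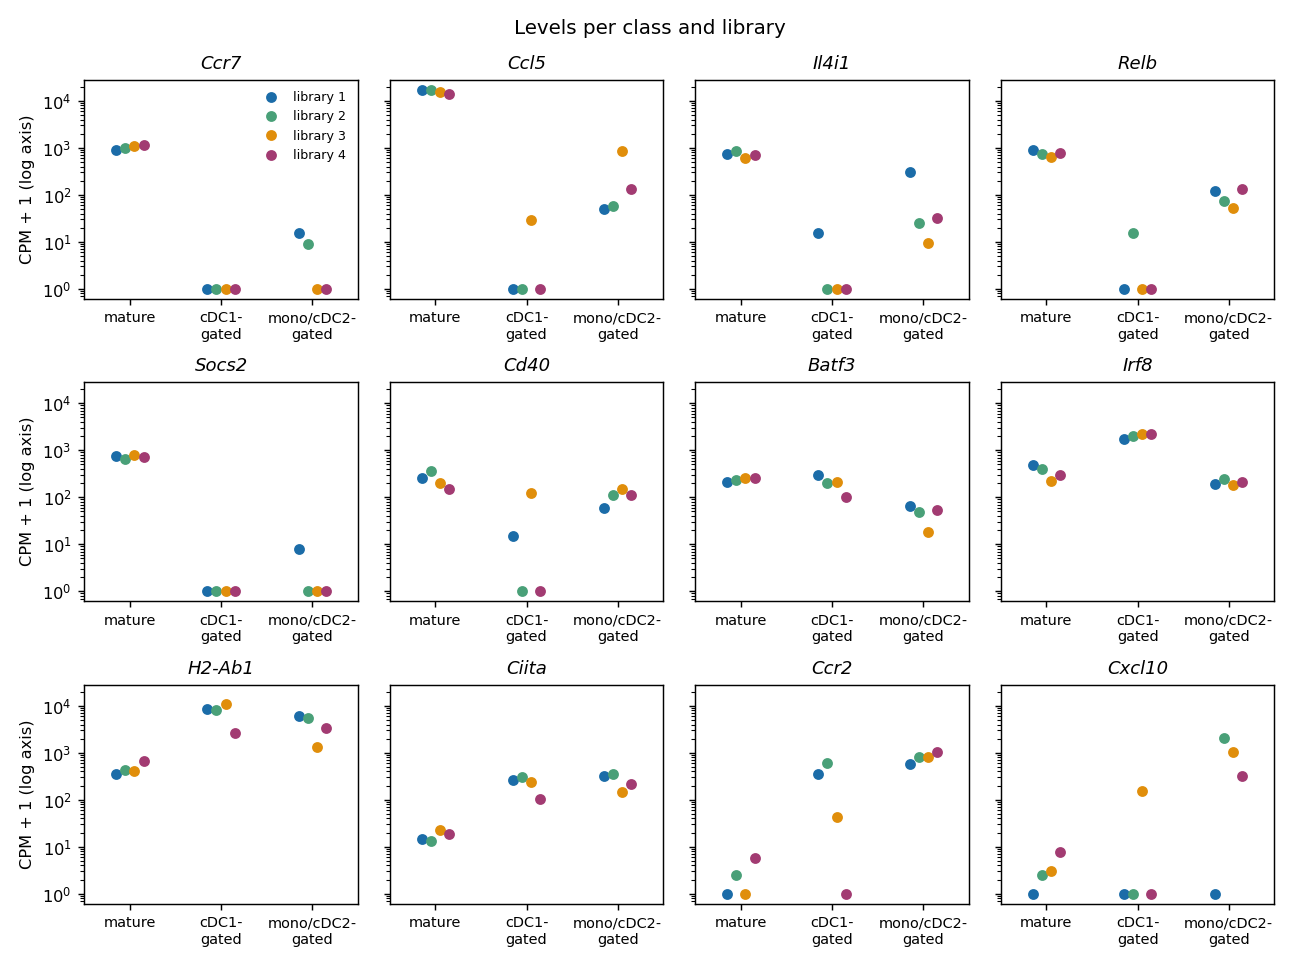
CPM plus 1 on a log axis for 12 genes in mature, cDC1-gated and monocyte and cDC2-gated cells, 1 point per library. Ccr7, Ccl5, Il4i1, Relb and Socs2 lie highest in mature cells in each library, H2-Ab1 and Ciita lie lowest there, Batf3 lies level with the cDC1-gated cells, and Ccr2 is a gene that chose the monocyte and cDC2-gated cells.

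Genes of the NF-kB pathway were more often higher than lower in mature cells, Relb and its partners among them. The pathway holds dimers of Rel proteins in the cytoplasm until signals such as CD40 or Toll-like receptors free them, and RelB with the p52 product of Nfkb2 forms the slower, non-canonical arm. Of 21 list genes tested, 16 were higher and 0 lower than in cDC1-gated cells (median log2 ratio 2.17), and of 22 tested, 6 were higher and 1 lower than in monocyte and cDC2-gated cells (median 0.62). With 0 counts set at 3 the medians were 2.21 and 0.64. Relb stood at 908, 743, 649 and 773 CPM in mature cells of libraries 1 to 4, against 121, 71.9, 50.8 and 130 CPM in monocyte and cDC2-gated cells, 7.64-fold higher (5.88 to 10.1), and had 1 count in cDC1-gated cells (167-fold, 29.9 to 6590). Birc2, a ubiquitin ligase gene of this arm, was 28.8-fold (12.3 to 88.9) and 11.1-fold (7.90 to 16) higher, and Traf1, an adaptor gene, 10.5-fold and 4.37-fold higher.

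The feedback genes and the canonical subunit showed smaller or opposite differences. These genes, like several others named here, were chosen after their values were seen. Tnfaip3, whose product A20 ends NF-kB signalling, stood at 171 CPM in mature cells and 67.7 CPM in monocyte and cDC2-gated cells, 2.53-fold higher (1.83 to 3.59). Nfkb2 stood at 169, 155, 176 and 166 CPM in mature cells, against 99.5, 95.9, 93.1 and 115 CPM in monocyte and cDC2-gated cells. Its groups do not overlap, but library 4 lay under the 1.5-fold limit, so it was not called (1.63-fold, 1.25 to 2.17), whereas against cDC1-gated cells it was 4.62-fold higher. Nfkbia, the inhibitor gene, was 3.44-fold higher than in cDC1-gated cells and not called against monocyte and cDC2-gated cells (874 and 528 CPM). Nfkb1, the canonical p105/p50 gene, was 2.89-fold lower than in monocyte and cDC2-gated cells, with 111 CPM in mature cells and 319 CPM there.

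Promoters of Nfkb2, Tnfaip3 and Nfkbia are shown because each holds matches to the sequence that NF-kB dimers bind. The runs below are the 250 bases upstream of the start in RefSeq, build GRCm38.p6, read 5′ to 3′ on the gene's strand, with matches to the NF-kB consensus on either strand in capitals. They lie at chr19:46304487-46304736 (plus), chr10:19015411-19015660 (minus) and chr12:55492648-55492897 (minus).
Nfkb2: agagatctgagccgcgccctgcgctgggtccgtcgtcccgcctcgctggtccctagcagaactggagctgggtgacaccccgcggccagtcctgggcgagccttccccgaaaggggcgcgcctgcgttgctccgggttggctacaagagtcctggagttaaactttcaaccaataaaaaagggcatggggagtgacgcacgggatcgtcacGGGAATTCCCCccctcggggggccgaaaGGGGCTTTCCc
Tnfaip3: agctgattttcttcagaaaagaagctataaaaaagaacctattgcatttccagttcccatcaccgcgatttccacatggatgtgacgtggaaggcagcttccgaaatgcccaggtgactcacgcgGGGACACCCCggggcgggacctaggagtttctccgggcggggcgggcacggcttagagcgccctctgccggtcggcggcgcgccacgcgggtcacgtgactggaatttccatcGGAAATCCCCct
Nfkbia: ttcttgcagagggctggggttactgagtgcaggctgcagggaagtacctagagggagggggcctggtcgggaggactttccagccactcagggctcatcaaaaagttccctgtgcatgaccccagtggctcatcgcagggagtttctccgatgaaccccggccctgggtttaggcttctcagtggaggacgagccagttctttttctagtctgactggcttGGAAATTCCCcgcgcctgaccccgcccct
Counting each strand, and overlapping matches apart, the consensus matched 4 times before Nfkb2, 3 times before Tnfaip3 and 1 time before Nfkbia. Nfkb2 had 3 entries and Tnfaip3 had 2. The entry shown was the one nearest the gene start in GENCODE among those with a match. It lay 417 bases from that start for Nfkb2 and 247 for Tnfaip3. The consensus occurred in 7.25% of 32851 promoters in the table, and in at least 1 promoter of 8.23% of 27025 genes. Of 25 NF-kB list genes, 21 had an entry, and 8 of those held a match. For comparison, 4 of 30 maturation genes with an entry held a match, and 0 of 5 genes of the cell-choosing rule. A match is a string of letters and no measure of binding.

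Survival genes were likewise more often higher than lower. Of 17 tested, 13 were higher and 0 lower than in cDC1-gated cells (median log2 ratio 1.92; 2.39 with 0 counts set at 3), and of 18 tested, 8 were higher and 2 lower than in monocyte and cDC2-gated cells (median 1.04; 1.07). Cflar, which encodes the caspase-8 inhibitor c-FLIP, stood at 410, 417, 347 and 334 CPM in mature cells, against 57.5, 43.4, 27.7 and 0 CPM in cDC1-gated cells, 8.93-fold higher (4.69 to 19.6). Cdkn1a, the cell-cycle inhibitor p21, stood at 368 CPM in mature cells, against 39.9 CPM in monocyte and cDC2-gated cells (9.23-fold higher) and 2 counts in cDC1-gated cells. The death receptor gene Fas stood at 94.4 CPM in mature cells and 17.4 CPM in monocyte and cDC2-gated cells, 5.44-fold higher.

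Molecules that signal to T cells were mixed between activating and restraining genes. Of 6 co-stimulation genes tested, 4 were higher (Cd40, Icosl, Icam1 and Slamf1) and 1 lower (Cd48) than in cDC1-gated cells. Against monocyte and cDC2-gated cells 3 were higher (Icosl, Icam1 and Slamf1) and 1 lower (Cd48). The shares over all genes were 21.7% higher and 6.66% lower in the first comparison, and 13.7% and 13.8% in the second. Cd83 belongs to the maturation list and not to these 6. It stood at 306, 277, 269 and 290 CPM in mature cells, against 7.11, 55.9, 0 and 5.21 CPM in monocyte and cDC2-gated cells, 18.2-fold higher (9.57 to 40.0). Icosl, the ligand gene of ICOS, was 4.44-fold higher than in cDC1-gated cells and 9.93-fold higher than in monocyte and cDC2-gated cells. Cd40, the receptor gene through which helper T cells license dendritic cells, stood at 258, 367, 198 and 148 CPM in mature cells. It was 4.80-fold higher than in cDC1-gated cells (2.59 to 10.0, from 10 counts there) and not called against monocyte and cDC2-gated cells (217 and 106 CPM). Cd86 was not called in either comparison, with 71.6 CPM in mature cells, 81.6 CPM in cDC1-gated cells and 41.7 CPM in monocyte and cDC2-gated cells.

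Among inhibitory and tolerance genes, 6 of 9 tested were higher and 1 lower than in cDC1-gated cells, and 6 of 10 were higher and 2 lower than in monocyte and cDC2-gated cells. Of all genes, 21.7% were higher and 6.66% lower in the first comparison, and 13.7% and 13.8% in the second. Cd274, the PD-L1 gene, stood at 33.8, 39.2, 64.6 and 66.2 CPM in mature cells, against 64.0, 55.9, 135 and 72.9 CPM in monocyte and cDC2-gated cells, and was not called. Against the 3 counts in cDC1-gated cells it was called higher (4.11-fold, 1.39 to 20.1). Pvr, the gene of CD155, a ligand of TIGIT and CD226, stood at 70.0 CPM in mature cells and had 0 counts in cDC1-gated cells and 3 in monocyte and cDC2-gated cells (13.4-fold, 4.55 to 65.6). Tgfb1, the gene of a suppressive cytokine, was 11-fold lower than in cDC1-gated cells and 20.9-fold lower than in monocyte and cDC2-gated cells, with 16 CPM in mature cells, 177 CPM in the cDC1-gated class and 335 CPM in the monocyte and cDC2-gated class.

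Interleukin-15 and its presenting receptor chain, which together sustain CD8 T cells and NK cells, were both on the mature side. Il15 stood at 197, 185, 160 and 127 CPM in mature cells, against 7.11, 7.99, 33.8 and 36.5 CPM in monocyte and cDC2-gated cells, 6.97-fold higher (4.04 to 13.2). Il15ra was 10.0-fold higher (5.56 to 20.2) in the same comparison. Il1b was 12.3-fold lower, with 14.9 CPM in mature cells and 184 CPM in monocyte and cDC2-gated cells.

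MHC class II genes were more often lower in mature cells, and class I genes more often higher. For both lists the background over all genes was 21.7% higher and 6.66% lower against cDC1-gated cells. Against monocyte and cDC2-gated cells it was 13.7% and 13.8%. Of 11 class II list genes tested, 2 were higher and 8 lower than in cDC1-gated cells (median log2 ratio -2.34), and of 12 tested, 1 was higher and 6 lower than in monocyte and cDC2-gated cells (median -1.59). H2-Ab1, the class II beta chain gene, stood at 344, 423, 411 and 661 CPM in mature cells, against 8368, 8140, 11176 and 2611 CPM in cDC1-gated cells (17.9-fold lower) and 5985, 5433, 1345 and 3408 CPM in monocyte and cDC2-gated cells (8.10-fold lower). Ciita, the master transactivator of class II genes, stood at 13.5, 12.5, 21.9 and 17.9 CPM in mature cells, against 258 CPM in cDC1-gated cells (14.9-fold lower) and 260 CPM in monocyte and cDC2-gated cells (15.0-fold lower). For both genes every mature library lay under every library of both other classes. Under TMM scaling the class II counts were 3 higher and 5 lower, and 1 higher and 5 lower.

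Of 24 class I list genes tested, 11 were higher and 1 lower than in cDC1-gated cells (median 0.75; 0.78 with 0 counts set at 3), and of 23 tested, 8 were higher and 0 lower than in monocyte and cDC2-gated cells (median 0.76; 0.80). H2-M2, a nonclassical class I gene, stood at 1907, 1916, 1499.5 and 1651 CPM in mature cells, against 149, 199.7, 0 and 46.9 CPM in monocyte and cDC2-gated cells, 17.8-fold higher (13.6 to 23.6). In cDC1-gated cells it had 0 counts, at least 125-fold. H2-Q7 was 4.67-fold higher than in monocyte and cDC2-gated cells. H2-M2 is also a member of the maturation list, and reads of class I genes can be split among near-identical copies, so single class I values are uncertain.

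Transcription factors of cDC1 cells did not move together in mature cells. Batf3, needed for cDC1 development, stood at 213, 235, 262 and 252 CPM in mature cells, against 302, 203, 208 and 100 CPM in cDC1-gated cells, which overlap (1.06-fold, 0.801 to 1.44), and 64.0, 47.9, 16.9 and 52.1 CPM in monocyte and cDC2-gated cells, 5.24-fold higher. Irf8, the other cDC1 factor, stood at 479, 392, 221 and 301 CPM in mature cells, against 1754, 1970, 2274 and 2210 CPM in cDC1-gated cells, 6.22-fold lower. Against monocyte and cDC2-gated cells Irf8 was not called (323 and 208 CPM). Id2 and Zbtb46, factors of all conventional dendritic cells, were 12.3-fold and 5.72-fold higher than in monocyte and cDC2-gated cells and not called against cDC1-gated cells.

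Irf4, a factor of cDC2 cells and of migration, stood at 60.8, 17.2, 78.6 and 38.6 CPM in mature cells, against 35.5, 47.9, 8.46 and 10.4 CPM in monocyte and cDC2-gated cells. The groups overlap, with library 2 lower in mature cells, and Irf4 was called higher (2.03-fold, 1.18 to 3.79) because library 2 held under 20 counts and was not used. Of 20 dendritic transcription factors tested against cDC1-gated cells, 7 were higher and 2 lower, and of 23 against monocyte and cDC2-gated cells, 8 were higher and 6 lower. All genes tested stood at 21.7% higher and 6.66% lower in the first comparison, and at 13.7% and 13.8% in the second. Zeb2, a factor of cDC2 and monocyte fate, had 124 CPM in mature cells and 722 CPM in monocyte and cDC2-gated cells, where it was lower. Its call as higher than in cDC1-gated cells rests on 3 counts there and turns to lower when the cDC1 gate asks for 2 genes (log2 ratio -0.63).

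Type I interferon response genes were lower than in monocyte and cDC2-gated cells and little different from cDC1-gated cells. Of 21 tested against the monocyte and cDC2-gated class, 0 were higher and 14 lower (median log2 ratio -2.91), and of 12 tested against the cDC1-gated class, 2 were higher and 1 lower (median 0.20; 0.29 with 0 counts set at 3). Ifi27l2a, an interferon-induced gene, stood at 37.1, 48.6, 138 and 114 CPM in mature cells, against 2189, 919, 5771 and 4861 CPM in monocyte and cDC2-gated cells, 36.4-fold lower. Libraries 3 and 4 were the higher ones in both classes. Of 14 interferon-gamma response genes tested against monocyte and cDC2-gated cells, 2 were higher and 7 lower (median log2 ratio -1.06). Against cDC1-gated cells this list went the other way, with 5 of 9 tested higher (Gbp2, Gbp4, Gbp5, Gbp8 and Irf1) and 1 lower (Ciita), at a median of 2.39. Over all genes 13.7% were higher and 13.8% lower against monocyte and cDC2-gated cells, and 21.7% and 6.66% against cDC1-gated cells.

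**Figure D3:**
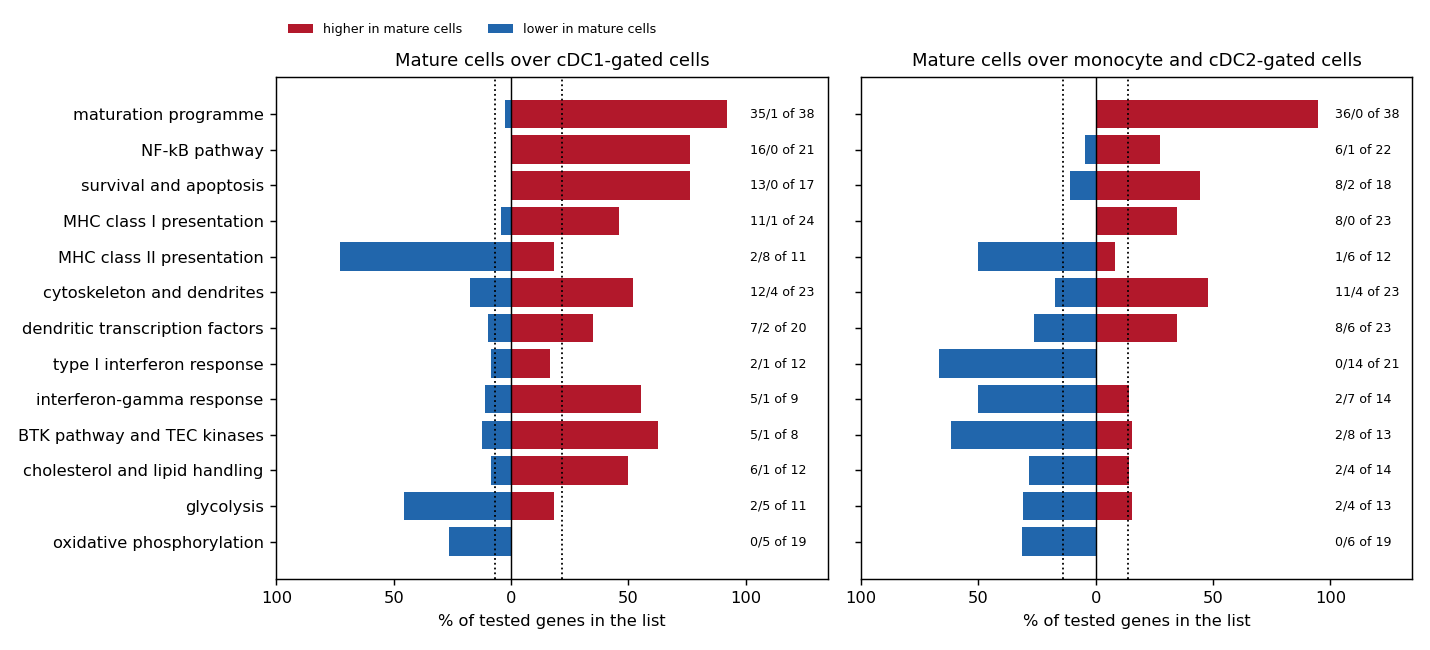
Percent of tested genes of 13 lists called higher (red, to the right) or lower (blue, to the left) in mature cells, against cDC1-gated cells and against monocyte and cDC2-gated cells, with the same percents over all genes as dotted lines. The maturation list stands far past the background to the right, the MHC class II list past it to the left in both panels, and the type I interferon list to the left against monocyte and cDC2-gated cells; glycolysis, 2 higher and 5 lower against cDC1-gated cells by CPM, turned to 3 higher and 1 lower under TMM.

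Btk, Ido1 and Ido2, which bear on the drug targets, had few counts in mature cells. Btk stood at 21.9, 7.84, 12.9 and 15.2 CPM in mature cells, against 56.9, 55.9, 76.2 and 31.3 CPM in monocyte and cDC2-gated cells, 3.62-fold lower, and between 109 and 118 CPM in B-gated cells. Of 13 BTK-pathway and TEC-kinase genes tested in that comparison, 2 were higher and 8 lower, while of 8 tested against cDC1-gated cells, 5 were higher and 1 lower. Among all genes 13.7% were higher and 13.8% lower in the first of these, so 2 of 13 higher is near the background. In the second, 21.7% were higher and 6.66% lower. Lyn, a Src-family kinase gene upstream of BTK, was 12.2-fold lower than in monocyte and cDC2-gated cells and 5.03-fold lower than in cDC1-gated cells. Ido1 and Ido2, which encode the tryptophan-degrading enzymes whose pathway indoximod targets, had 7 and 3 counts in all mature cells. Ido1 at 6.75, 1.57, 0.994 and 0.690 CPM is too sparse to order the libraries. Of tryptophan and aryl hydrocarbon receptor genes, 2 were tested against cDC1-gated cells and 3 against monocyte and cDC2-gated cells, with 1 higher (Il4i1) and 0 lower each time.

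Cytoskeletal genes went both ways. Of 23 tested, 12 were higher and 4 lower than in cDC1-gated cells, and 11 were higher and 4 lower than in monocyte and cDC2-gated cells, with Fscn1, which chose the cells, among the higher genes both times. The background over all genes was 21.7% higher and 6.66% lower in the first comparison, and 13.7% and 13.8% in the second. Swap70, whose product links membranes to actin in migrating dendritic cells, stood at 508, 522, 472 and 408 CPM in mature cells, against 36.3 CPM in cDC1-gated cells (12.7-fold higher, 6.44 to 29.5). Marcks, an actin-membrane linker gene, was 7.25-fold higher than in cDC1-gated cells and 5.53-fold higher than in monocyte and cDC2-gated cells. Coro1a, which encodes the leukocyte actin regulator coronin 1A, was lower in both comparisons, with 147 CPM in mature cells, 924 CPM in cDC1-gated cells and 1353 CPM in monocyte and cDC2-gated cells. Respiratory genes were on the low side by CPM, with 0 higher and 5 lower of 19 against cDC1-gated cells and 0 higher and 6 lower of 19 against monocyte and cDC2-gated cells, but TMM scaling left 1 lower in each.

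Of genes of Langerhans cells and epithelial contact, 3 of 3 tested (Epcam, Mfge8 and Ltc4s) were higher than in cDC1-gated cells, and the same 3 of 5 tested were higher and 1 (Runx3) lower than in monocyte and cDC2-gated cells. Mfge8, which encodes a bridging protein for dying cells, stood at 555, 495, 265 and 401 CPM in mature cells and had 1 count in cDC1-gated and 2 counts in monocyte and cDC2-gated cells (117-fold, 32.3 to 965). Ltc4s, the leukotriene C4 synthase gene, stood at 223, 168, 193 and 206 CPM in mature cells and had 0 counts in both other classes. Epcam was detected in 89 mature cells (22.2%).

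Outside the lists, the largest called differences included Synpo2, an actin-associated gene, with 295 CPM in mature cells and 0 counts in both other classes (at least 21.7-fold and at least 56.6-fold higher). Tnfrsf4, the gene of OX40, stood at 212 CPM in mature cells and had 0 counts in monocyte and cDC2-gated cells, at least 40.7-fold higher. Gadd45b, a stress-induced gene, stood at 1465 CPM in mature cells and had 1 count in cDC1-gated cells. On the low side, Plbd1, a lysosomal lipase-like gene, stood at 9.77 CPM in mature cells and 1246 CPM in cDC1-gated cells, and Plac8 at 14.1 CPM in mature cells, 530 CPM in cDC1-gated cells and 5280 CPM in monocyte and cDC2-gated cells.

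Subsets of the mature cells were then drawn by single transcripts of Ccl17, Il12b and Xcr1. A cell with a count is called detected, and a cell without one may still express the gene. Ccl17, at chr8:94810453-94812036 (plus), was detected in 137 of 401 mature cells (34.2%, 29.5 to 39.0). By library these were 20, 28, 33 and 56 cells, or 31.7%, 39.4%, 29.7% and 35.9%. The share in cells that should lack the gene was 0.205% of B-gated cells (median 3863 UMIs) and 0.219% of T-gated cells (median 6287 UMIs), against a median of 8572 UMIs in mature cells. It was 0 of 23 cDC1-gated and 0 of 62 monocyte and cDC2-gated cells, which by the same limit allows up to 13.0% and 4.84% of cells with a count. Depth moved with detection, at a median of 11424 UMIs in Ccl17-detected cells and 7128 in the rest, and with every cell thinned to 3000 UMIs the share was 19.5% of 348 cells (15.5 to 24.1).

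Ccl17 levels were uneven among cells and libraries. It stood at 105, 304, 444 and 108 CPM in libraries 1 to 4, and the cell with most Ccl17 held 11.3%, 29.4%, 64.7% and 10.9% of each library's counts. The high level of library 3 thus came in the main from 1 cell, while its share of detected cells was the lowest of the 4.

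Cells with Ccl17 differed from the rest in few genes. Of 3795 tested, 11 were higher (0.29%) and 16 lower (0.422%), and 9 and 15 of these also had an interval that left out 1. Ccl22, which lies near Ccl17 on chromosome 8 and also encodes a CCR4 ligand, stood at 1838, 2504, 3527 and 1602 CPM in Ccl17-detected cells, against 619, 1483, 967 and 669 CPM in Ccl17-undetected cells. Each library was higher in detected cells, and the pooled log2 ratio was 1.39 (1.30 to 1.47). Apol7c followed it with 4031, 6238, 2722 and 2786 CPM in detected cells, against 1732, 2657, 1693 and 1530 CPM in undetected cells (log2 ratio 1.00). Both belong to the 6 genes of the cell-choosing rule, and the other 4 were not called, Fscn1 for example at 3138 CPM in detected and 2434 CPM in undetected cells.

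Among genes outside the rule, S100a10, which encodes an annexin partner, stood at 252 CPM in Ccl17-detected and 105 CPM in undetected cells (log2 ratio 1.27, 1.02 to 1.51). Myof, the membrane-repair gene myoferlin, stood at 92.8 and 36.9 CPM in the same order (1.33), and Ahnak, a large scaffold protein gene, at 386 and 188 CPM (1.04). Lower were Tnfrsf4 at 314, 88.6, 82.8 and 97.0 CPM in detected cells, against 529, 381, 214 and 192 CPM in undetected cells (-1.16, -1.40 to -0.93), and Il2rg, the common gamma chain gene, at 41.1 CPM in detected and 87.3 CPM in undetected cells (-1.09). Tubb2b, a tubulin gene, was lower too (36.9 and 117 CPM, -1.66). Cd200, the gene of a ligand that restrains myeloid cells, was lower in each library at 33.2, 19.7, 36.8 and 31.3 CPM in detected cells, against 56.0, 48.0, 87.6 and 87.2 CPM in undetected cells (-1.29), but at equal depth its log2 ratio was -0.31 and it was not called. Hbb-bs, a haemoglobin gene that red cells make, was also lower (31.5 and 62.3 CPM, -0.98), and its part in the other calls was not tested.

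With every cell thinned to 3000 UMIs, 3 of the 11 higher genes (Ccl22, S100a10 and Ahnak) and 1 of the 16 lower genes (Tnfrsf4) were called again.

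Ccr7, Cd40 and Irf8 were not called between these subsets. Ccr7 stood at 925 CPM in Ccl17-detected and 1199 CPM in undetected cells (log2 ratio -0.37). Of the 38 maturation genes tested, 0 were higher and 1 (Cd200) lower, with a median log2 ratio of 0.01 against 0.00 over all genes. Epcam, an adhesion gene of Langerhans and epithelial cells, was detected in 47 cells together with Ccl17, where the product of the 2 shares gives 30.4. At equal depth the joint count was 7 and the product 7.23.

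Il12b, at chr11:44400063-44414033 (plus), encodes the p40 chain of interleukins 12 and 23 and was detected in 38 of 401 mature cells (9.48%, 6.79 to 12.8). These were 6, 10, 8 and 14 cells in libraries 1 to 4, or 9.52%, 14.1%, 7.21% and 8.97%. Among B-gated cells 0.0754% had a count, and among T-gated cells 0.0476%. Thinned to 3000 UMIs, 4.60% of mature cells carried it. Levels were 16.9, 54.9, 11.9 and 37.9 CPM, with between 25.0% and 50.9% of a library's counts in its top cell. Ccl17 and Il12b were found together in 12 cells, where the product of their shares gives 13.0.

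Cells with Il12b carried less Zeb2, and were called higher in Irf8 with library 1 resting in the main on 1 cell. Of 3796 genes tested, 19 were higher (0.501%) and 88 lower (2.32%), and 18 and 66 of these had an interval that left out 1. Irf8 stood at 1112, 703, 420 and 747 CPM in Il12b-detected cells, against 369, 318, 205 and 236 CPM in Il12b-undetected cells, with each library higher (log2 ratio 1.53, 1.34 to 1.71). It was detected in 31 of 38 cells (81.6%), against 224 of 363 (61.7%), and 1 cell gave 23.6% of its counts in the detected cells. That cell lay in library 1, where it held 29.2% of the Irf8 counts of all mature cells and most of those of the 6 detected cells. The difference in library 1 thus rests in the main on 1 cell. A call asks for every library used, so the call of Irf8 depends on that cell, and the call was not recalculated without it. Zeb2 stood at 22.7, 24.5, 54.2 and 21.8 CPM in Il12b-detected cells, against 147, 79.5, 127 and 167 CPM in undetected cells, lower in each (-2.32, -3.24 to -1.53). Its cells were 10 of 38 (26.3%), against 153 of 363 (42.1%). These are the 2 called among 18 dendritic transcription factors tested. Batf3 was level (246 and 245 CPM) and Irf4, at 21.4 CPM in detected and 53.4 CPM in undetected cells, was not called.

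Fabp5, a fatty-acid carrier gene, was lower at 329, 327, 839 and 594 CPM in Il12b-detected cells, against 573, 1081, 1692 and 1815 CPM in undetected cells (log2 ratio -1.52, -1.71 to -1.33). Of 11 cholesterol and lipid genes tested, Fabp5 and Sqle were lower, and the interval of Sqle includes no difference (log2 ratio -0.94, -2.43 to 0.25). Zmynd15, a gene of the rule, was higher (1362 and 602 CPM, 1.18), as were Txndc17, a thioredoxin-family gene (1934 and 653 CPM, 1.57), Tmbim4, an anti-apoptotic membrane protein gene (363 and 149 CPM, 1.28), and Rhoc, a GTPase gene of cell movement (169 and 66.2 CPM, 1.35). Crispld2 had 2 counts in detected cells and 52.5 CPM in undetected cells. Ccr7 stood at 2064, 1961, 1097 and 1510 CPM in detected cells, against 716, 764, 1117 and 1092 CPM in undetected cells. It was not called because libraries 3 and 4 lay under the 1.5-fold limit. Ccl22 (1567 and 1523 CPM) and Cd40 (257 and 212 CPM) were not called.

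Few cells and unequal depth bound these calls, since the 38 cells held 12.7% of the mature UMIs and had a median of 10372.5 UMIs, against 8298 in Il12b-undetected cells. At 3000 UMIs per cell 2 of the 19 higher and 2 of the 88 lower genes were called again, Zeb2 among them and Irf8 not. Under TMM 9 were higher and 123 lower, so that 6.82% of the calls were higher, where by CPM it was 17.8%, and the median log2 ratio over all genes was -0.13, where by CPM it was 0.03.

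**Figure D4:**
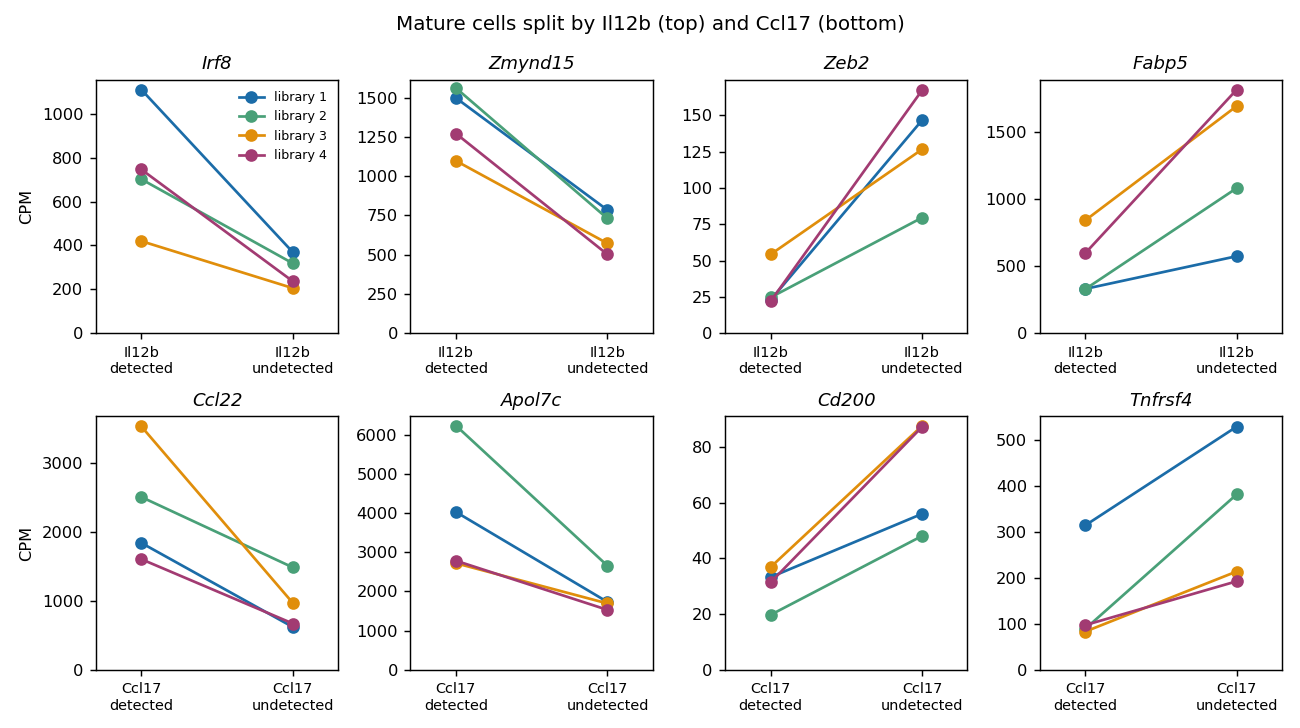
CPM per library of Irf8, Zmynd15, Zeb2 and Fabp5 in Il12b-detected and undetected mature cells, and of Ccl22, Apol7c, Cd200 and Tnfrsf4 in Ccl17-detected and undetected mature cells. In each panel all 4 libraries move the same way, though for Irf8 the difference in library 1 rests in the main on 1 cell.

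Xcr1, at chr9:123852315-123862029 (minus), encodes the XCL1 receptor that marks cDC1 cells, and it was detected in 1 of 401 mature cells (0.249%, 0.00631 to 1.38). It was detected in 0.162% of B-gated and 0.200% of T-gated cells, so the share in mature cells is at background, while 20 of 23 cDC1-gated cells (87.0%), a class Xcr1 helped to choose, carried it. The 1 cell lay in library 4, had 2 Xcr1 counts and was the deepest of all mature cells with 62979 UMIs. It carried 127 counts of Ccr7, 55 of Irf8, 5 of Cadm1 and 0 of Clec9a. No comparison of genes was made for a subset of 1 cell.

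Between libraries, most genes of the mature cells kept close. Of 2875 genes with at least 50 CPM in 1 library, 144 (5.01%) differed at least 2-fold between the highest and lowest library after 10 CPM was added to each, and 32 (1.11%) at least 3-fold. Cacnb3, Ccr7, Cd83 and Batf3 were among the steady genes, and Flt3, the growth factor receptor gene of dendritic cells, ran from 149 to 191 CPM. Of 18 NF-kB genes and 8 MHC class II genes, 0 passed 2-fold, and of 38 maturation genes 4 did (Stat4, Laptm4b, Slco5a1 and Clu). With 5.01% over all genes, a count of 0 among so few genes does not set the first 2 lists apart. The maturation count lies above that share, also from few genes.

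Interferon-induced genes were among those that varied most. Isg15, which encodes a ubiquitin-like interferon product, stood at 10.1, 48.6, 121 and 99.3 CPM in libraries 1 to 4 and was detected in 7.94%, 25.4%, 23.4% and 21.8% of mature cells. Ifitm3, a membrane antiviral gene, stood at 1.69, 18.8, 71.6 and 75.9 CPM, and Zbp1, a nucleic-acid sensor gene, at 13.5, 11, 69.6 and 32.4 CPM. These 3 were higher in libraries 3 and 4 than in libraries 1 and 2. The top cell held 44.3% of the Isg15 counts in library 3 and 28.5% in library 4, and the share of cells with Isg15 was largest in library 2. For Ifitm3 the top cell held 34.7% in library 3 and 18.2% in library 4, and for Zbp1 7.14% and 8.51%. Samd9l, another interferon-induced gene, ran in another order, at 18.6, 65.8, 8.95 and 26.9 CPM, highest in library 2. B-gated cells had 26.0, 27.3, 90.8 and 96.5 CPM of Isg15 and T-gated cells 58.6, 66.8, 139 and 138 CPM, so for Isg15 the order of these pairs of libraries was the same outside the mature cells. The summed type I interferon list stood at 733, 894, 1248 and 1273 CPM in mature cells, with 3 of 9 genes past 2-fold.

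Nr4a3, an immediate-early nuclear receptor gene used by migratory dendritic cells, stood at 6.75, 1.57, 24.9 and 60.7 CPM, also higher in libraries 3 and 4. Other genes ran in other orders. Jag1, a Notch ligand gene, stood at 87.8 and 140 CPM in libraries 1 and 2 and at 30.8 and 43.4 CPM in libraries 3 and 4, and Itgb8, whose integrin activates TGF-beta, at 50.6, 90.9, 12.9 and 28.3 CPM. Cd40 had the same order of pairs (258, 367, 198 and 148 CPM), as did Epcam (77.6, 76.8, 35.8 and 28.3 CPM). Irf4 did not, with 60.8, 17.2, 78.6 and 38.6 CPM.

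Single cells and red cell RNA made some of the widest spreads. Cxcl13, the B cell zone chemokine gene, stood at 30.4, 3.14, 7.95 and 314 CPM, and 1 cell held 97.4% of the counts in library 4. Mucl1 came in each library where it was found almost wholly from 1 cell. Hbb-bs stood at 132, 111, 4.97 and 16.6 CPM in mature cells, against 885, 688, 15.8 and 538 CPM in B-gated cells, and its part in the differences between libraries was not tested.

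**Figure D5:**
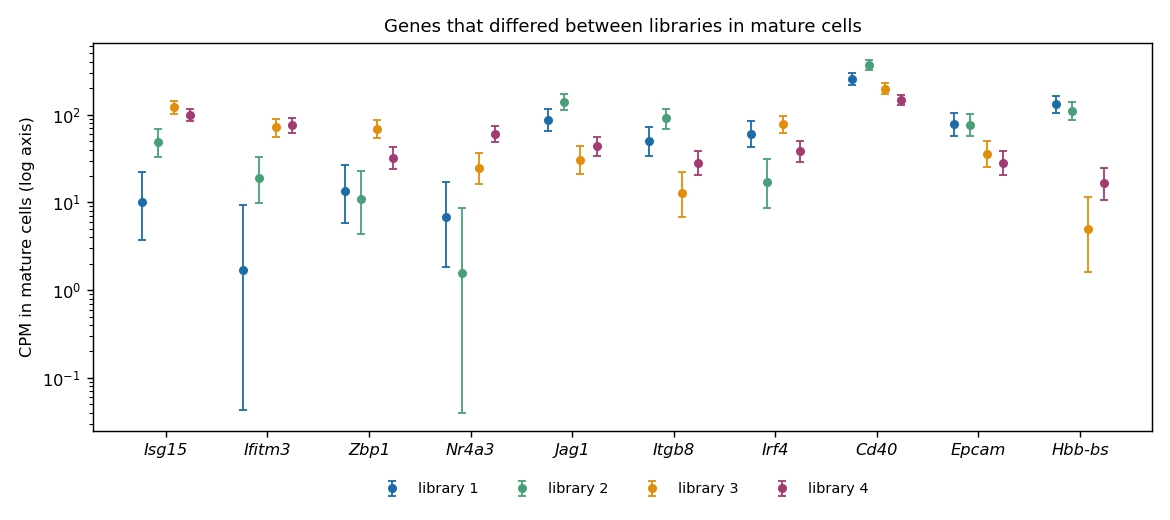
CPM of 10 genes in the mature cells of libraries 1 to 4, with exact Poisson 95% intervals for counting error. Isg15, Ifitm3 and Zbp1 are higher in libraries 3 and 4, Jag1, Itgb8, Cd40 and Epcam in libraries 1 and 2, and Hbb-bs is the red cell gene. In library 3 the top cell held 44.3% of the Isg15 counts.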

How the data were processed

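Nodes were mechanically disaggregated and run on 10x Genomics 3′ version 3 chemistry with a stated aim of about 2000 cells for each sample, per the labels' protocols. The deposited matrix holds raw UMI counts of 31053 genes, combined from 4 libraries of 7002, 6978, 7013 and 9831 barcodes. Per the file headers the authors made the counts with cellranger 5.0.0, and per the submitters' processing notes the build was mm10. No normalisation of the counts was found, and whether reads were evened out between libraries is not given in the sources used here.

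Each class's UMIs in a library were added up and expressed as CPM. TMM factors from edgeR 4.0.16 served as an alternative scaling, and no count model was fitted. Ratio intervals are exact conditional 95% intervals of pooled counts. A class at 0 was set at 3 counts over the class for lower bounds. Doublets were scored per library with Scrublet in scanpy 1.11.5 (expected rate 0.8% per 1000 cells, with 105, 120, 228 and 474 called) and removed only as an alternative. Promoters came from RefSeq (GRCm38.p6) and gene positions from GENCODE vM21. The scripts (Python 3.11.15, numpy 2.4.6, pandas 2.3.3, scipy 1.17.1) were tested on simulated data. Mature cells held 3686046 UMIs, between 654 and 62979 per cell.

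The members and gene lists were chosen with earlier results of these data known. Genes were named as up to 4 called genes per list with the largest ratio, the 8 called genes outside the lists with the largest ratio each way, and the 20 genes of widest spread between libraries, plus a fixed set of 13 genes. Others were chosen after their values were seen. Samples were not assigned to libraries, so no comparison of treatment groups was made. Alternatives were a gate of 4 genes, a stricter filter on cells, doublet removal, thinning to 3000 UMIs, TMM, a minimum of 10 counts, a 2-fold limit, mature cells without B or T cell UMIs, leaving out each library and, added after seeing the data, a cDC1 gate of 2 genes, the interval criterion and leaving out the cell with Xcr1.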

Additional observations from a re-analysis of the deposited data

How the results depend on the processing

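No paired analysis was possible because no library is tied to a mouse or a group and no test between groups was made. Over 3341 recalculations of named genes, 2883 kept the call, 446 lost it, 4 moved and 8 reversed. The reversals were Fcer1g (log2 ratio -0.59), Zeb2 (-0.63) and Tcf4 (-1.38) against cDC1 cells gated on 2 genes, Sptbn1 (-0.83) and Lrrc40 (0.17) for Ccl17 at equal depth, Chuk (0.29) and Blnk (0.98) for Il12b at equal depth, and Mucl1 (1.13) for Il12b under the stricter cell filter.

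Thinning to 3000 UMIs, which leaves fewer counts, gave 379 higher and 120 lower against cDC1-gated cells, 295 and 165 against monocyte and cDC2-gated cells, 4 and 7 for Ccl17 and 11 and 32 for Il12b. TMM gave 1438 and 84, 991 and 421, and 9 higher for Il12b. A minimum of 10 counts gave 951 lower against monocyte and cDC2-gated cells, 26 and 42 for Ccl17 and 37 and 156 for Il12b. A 2-fold limit gave 142 lower against cDC1-gated cells, 1 and 3 for Ccl17 and 4 and 16 for Il12b. The cDC1 gate of 2 genes (46 cells) gave 430 lower. For Il12b lower, a gate of 4 genes gave 58 and the stricter cell filter 49.

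Leaving out each library gave 808 to 1033 higher and 301 to 439 lower against cDC1-gated cells, 588 to 675 and 567 to 699 against monocyte and cDC2-gated cells, 11 to 21 and 11 to 19 for Ccl17, and 29 to 42 and 81 to 132 for Il12b, where fewer libraries have to agree. Past 1.5 times the count went 439 lower against cDC1-gated cells without library 4, 21 higher for Ccl17 without library 4, and higher for Il12b without library 1 (29), 2 (35), 3 (42) or 4 (39). The median share of mature cells over libraries, 1.49% in the analysis as described, was 1.32% with a gate of 4 genes, 2.02% under the stricter filter and 1.23% to 1.75% on leaving out each library. Over libraries the median share with Ccl17 was 20.1% after thinning and 33.8% before, and with Il12b 3.90% after and 9.25% before. Without mature cells that held B or T cell UMIs, 224 genes differed at least 2-fold between libraries, 113 of them among the 144. The causes were not tested.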

Other observations

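Libraries 1 and 2 lay on one side and libraries 3 and 4 on the other in several measures of the mature cells, as values and with no group attached. The share of kept barcodes was 1.11%, 1.23%, 1.75% and 1.87% in libraries 1 to 4. Summed type I interferon genes stood at 733, 894, 1248 and 1273 CPM in mature cells, at 2430, 2365, 5677 and 5592 CPM in B-gated cells and at 2578, 2605, 3852 and 3843 CPM in T-gated cells. S100a10 stood at 62.5, 102, 254 and 190 CPM and Serpinb1a, a protease inhibitor gene, at 272, 458, 194 and 114 CPM in mature cells.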
